A study of Mus musculus with 6 samples.

Results

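The 8 genes described here encode transcription factors and cofactors that set how far smooth muscle cells hold their contractile state. They were taken by symbol from the deposited count table, and all 8 of them were found among its 24391 genes. Myocd, Mkl1 and Mkl2 encode myocardin and the myocardin-related transcription factors (Mkl1 and Mkl2 are now named Mrtfa and Mrtfb), Srf encodes serum response factor, to which all 3 bind, Klf4 and Klf5 encode Krüppel-like zinc finger proteins, Tcf21 encodes a basic helix-loop-helix protein, and Mef2c encodes a MADS-box protein related to SRF. The transcripts were counted by RNA sequencing in brachiocephalic arteries with atherosclerotic lesions from 3 Col15a1-/- (KO) and 3 wild type (WT) mice. Both groups had a C57BL/6 background and ate a Western diet for 18 weeks. The study's title describes the loss of Col15a1, the gene of the type XV collagen chain, as specific to smooth muscle, while the sample labels give only Col15a1 -/-. The labels name neither a Cre driver nor another allele, and give no age.

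In smooth muscle, SRF binds a short DNA element, the CArG box, in front of contractile genes and also in front of growth-response genes. Myocardin, found mainly in smooth and cardiac muscle, directs SRF to contractile genes. MRTFs sit in the cytoplasm bound to actin monomers and enter the nucleus when actin polymerises, and ternary complex factors compete with the myocardin family for SRF. KLF4 opposes myocardin in cultured smooth muscle and is known for its part in the phenotypic switching of these cells in mouse lesions. KLF5 is linked to proliferation, TCF21 to the fibroblast-like turn of smooth muscle cells, and MEF2C acts upstream of Myocd during development.

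The promoter of Srf itself shows the CArG box, the element that SRF binds. RefSeq promoter windows (GRCm38.p6, 250 bases before to 50 after each annotated start) were matched by symbol or synonym for 6 of the 8 genes, Myocd and Klf5 being the others. The CArG box was searched as an exact match on both strands, and its consensus reads the same on both. It was present in 1.63% of all 32851 windows. Among the 11 windows of the 6 genes, only that of Srf held it, with 2 boxes centred 77 and 57 bases before the start. Single boxes from promoters of SRF target genes are shown for comparison, with CArG boxes in capitals: Myl9 encodes a myosin light chain of the contractile apparatus, Actg1 a cytoplasmic actin, and Vcl the adhesion protein vinculin.
Srf: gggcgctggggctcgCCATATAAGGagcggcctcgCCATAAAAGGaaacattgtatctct
Myl9: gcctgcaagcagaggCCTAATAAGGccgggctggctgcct
Actg1: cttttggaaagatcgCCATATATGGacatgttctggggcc
Vcl: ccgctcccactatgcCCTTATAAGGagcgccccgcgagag
The stretches lie at chr17:46556200-46556259 (minus strand, Srf), chr2:156775288-156775327 (plus, Myl9), chr11:120348561-120348600 (minus, Actg1) and chr14:20929156-20929195 (plus, Vcl). A match describes the letters and does not show that SRF was bound. Among the promoter windows of the contractile genes listed further on, 1 of 12 matched genes held an exact box, as did 3 of 8 matched cytoskeletal genes and 1 of 6 matched early genes. These counts are per gene, some with several windows, whereas the 1.63% is per window. Boxes outside the windows or off the exact consensus were not counted. Unmatched genes, among them Myh11, Actb and Egr1, were not searched, so the counts do not show which genes lack a box.

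Total counts were 22223584 to 26982005 per library. Col15a1 itself was at 193, 198 and 90.97 CPM (read counts scaled to library size, with TMM factors) in KO 1, KO 2 and KO 3, against 574, 407 and 501 CPM in WT 1, WT 2 and WT 3, so each KO library was lower than each WT library. The edgeR log2 fold change was -1.62 (adjusted p 0.587; DESeq2 adjusted p 0.00219). KO 3 and WT 2 stood apart. Their summed levels of 8 sympathetic neuron markers were 3716 and 1775 CPM, against 111 to 172 CPM in the other 4 libraries, and results that rest on them are given with and without them. Smooth muscle markers were abundant in every library, at 5650 to 14100 CPM summed over 6 genes in KO and 5330 to 9450 CPM in WT. Macrophage markers (7 genes) summed to 611 to 1100 CPM in KO and 1570 to 1700 CPM in WT, and no gene of either list was at 0 in all libraries. In such mixed tissue, fewer cells of a type and less RNA per cell cannot be told apart.

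None of the 8 regulators passed the test between KO and WT, and 7 of them had overlapping groups. In edgeR's quasi-likelihood test, 0 of 8 had an adjusted p under 0.05, against a background of 0% (0 of 15937 genes tested), and 0 of 8 had an unadjusted p under 0.05, against 4.02% of all genes higher and 3.98% lower in KO. DESeq2 called 0 of 8 after adjustment, against 0.422% of all genes, and 1 of 8, Mkl1, had an unadjusted p under 0.05 (0.0472 in DESeq2), against 9.41% of all genes. Limma-voom called 0 of 8 after adjustment, against 0% of all genes (0 of 15937). Fitted log2 fold changes (KO over WT) were above 0 for 6 genes and below 0 for 2, and their median was 0.12, against 60.9% positive and a median of 0.068 over all genes tested. All 8 passed the filter on low counts. The gene with the smallest p was Mkl1 and the next was Myocd, with opposite signs. With 3 animals per group the intervals were wide: those of Myocd ran from -0.15 to 1.116 and those of Srf from -0.52 to 0.54 on the log2 scale, so changes of moderate size in either gene lie within them.

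**Figure D1:**
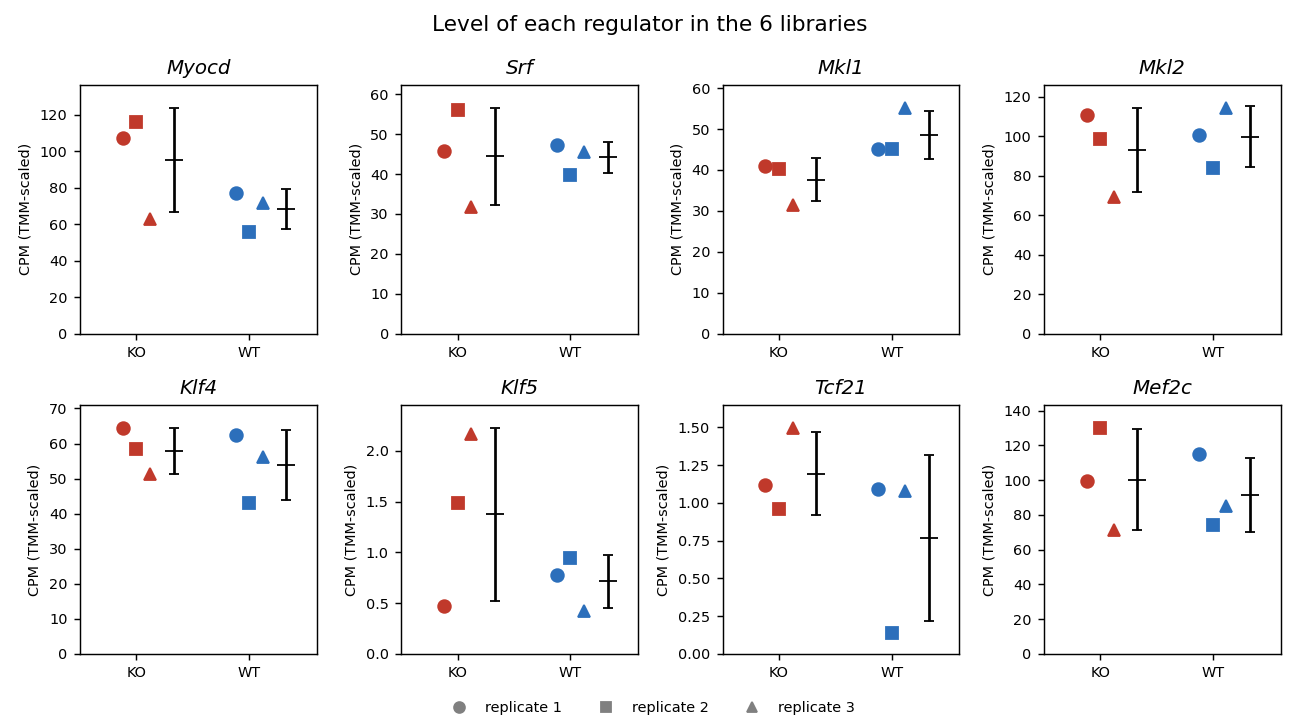
CPM (TMM-scaled, axis from 0) of the 8 regulators in the 3 KO and 3 WT libraries; each marker is a library, its shape gives the replicate number, and the bar gives the mean and SD. Mkl1 is the gene whose groups do not overlap, with KO libraries at 31.5 to 41.0 CPM and WT libraries at 45.1 to 55.3 CPM.

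**Figure D2:**
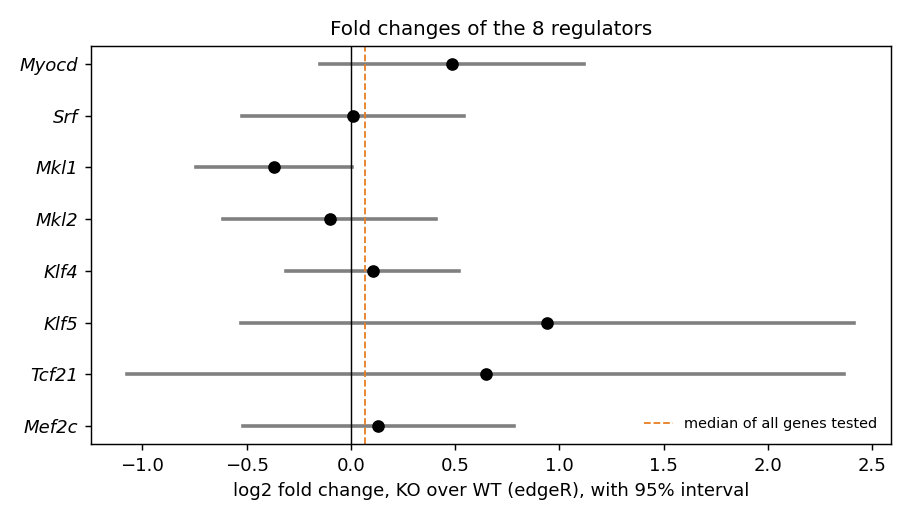
Log2 fold change (KO over WT) of each regulator by edgeR, with its 95% interval; the dashed line is the median of all genes tested, 0.068. Every interval includes 0, and those of the low genes Klf5 and Tcf21 are the widest.

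Myocd (chr11:64990072-65083491, minus strand, mm9, 14 exons) had 2484, 2666 and 1593 reads in KO 1, KO 2 and KO 3, against 1698, 1663 and 1849 reads in WT 1, WT 2 and WT 3. Scaled, it was at 107, 116 and 62.8 CPM in the KO libraries, against 77.2, 55.9 and 71.4 CPM in the WT libraries. KO 1 and KO 2 lay above every WT library, and KO 3 lay among them. The means were 95.4 ± 28.6 CPM in KO and 68.2 ± 11.03 CPM in WT (SD, n = 3 each). The log2 fold change was 0.48 (SE 0.26, edgeR adjusted p 0.688). Without KO 3 the fitted change was 0.71 (adjusted p 0.592), without KO 2 it was 0.32 (adjusted p 0.817), and without both KO 3 and WT 2 it was 0.58 (unadjusted p 0.000881, adjusted p 0.282). Markers of smooth muscle summed to 8750, 14140 and 5648 CPM in KO 1, KO 2 and KO 3, against 9449, 5326 and 7396 CPM in WT 1, WT 2 and WT 3. Per length, Myocd stood at 8.17, 4.88 and 6.79 parts per 1000 of these markers in the KO libraries, against 4.92, 6.32 and 6.17 parts in the WT libraries. On that measure the groups overlapped, and KO 2, which had the highest Myocd, had the lowest ratio. Cardiac muscle is the other main site of Myocd expression. Its 8 markers had 8 positive log2 fold changes, and none was at 0 in all libraries. EdgeR and DESeq2 called 0 of them, but DESeq2 gave no adjusted p for Myh6, Myh7 and Nppa. The sum of the 8 was 213 to 279 CPM in KO and 129 to 204 CPM in WT. Most of that sum was Ryr2, at 169, 155 and 229 CPM in KO 1, KO 2 and KO 3, against 137, 119 and 108 CPM in WT 1, WT 2 and WT 3. Without Ryr2, a choice made after seeing the data, the sums overlapped, at 44.2 to 110 CPM in KO and 9.68 to 95.4 CPM in WT. Their part in the Myocd level was not tested.

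Srf (chr17:46683788-46693111, minus strand, mm9, 7 exons), the DNA-binding partner of the family, was at 45.7, 56.0 and 31.7 CPM in KO 1, KO 2 and KO 3, against 47.2, 39.7 and 45.6 CPM in WT 1, WT 2 and WT 3. The KO libraries held both the highest and the lowest value of the 6. The means were 44.5 ± 12.2 CPM in KO and 44.2 ± 3.96 CPM in WT (SD, n = 3 each), with a log2 fold change of 0.011 (SE 0.22, edgeR adjusted p 0.991), and its sign turned with the scaling. It was -0.19 without KO 2 and 0.20 without KO 3.

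Mkl1 (chr15:80842711-81021187, minus strand, mm9, 15 exons), the gene of MRTF-A, was lower in every KO library than in any WT library. It was at 41.0, 40.2 and 31.5 CPM in KO 1, KO 2 and KO 3, against 45.1, 45.1 and 55.3 CPM in WT 1, WT 2 and WT 3. The gap between the nearest libraries, KO 1 and WT 1, was small beside the range within either group. The log2 fold change was -0.37 (SE 0.15, edgeR unadjusted p 0.0524, adjusted p 0.617). Over all genes tested, 16.7% had groups that did not overlap, 8.38% with KO below, so 1 of 8 regulators is near the background. Of 7 macrophage markers, 7 had lower fitted levels in KO. EdgeR called 0 of them and DESeq2 called 1, Aif1 (DESeq2 adjusted p 0.0337, edgeR adjusted p 0.587). Their summed level did not overlap between the groups either, and their part in the Mkl1 level was not tested.

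Mkl2 (chr16:13256574-13417622, plus strand, mm9, 20 exons), the gene of MRTF-B, overlapped between groups. It was at 111, 98.6 and 69.3 CPM in KO 1, KO 2 and KO 3, against 101, 83.7 and 114 CPM in WT 1, WT 2 and WT 3. KO 3 and WT 2, the libraries rich in neuronal transcripts, were the lowest of their groups. The log2 fold change was -0.10 (SE 0.21, edgeR adjusted p 0.924), and it was 0.071 without KO 3.

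The 3 genes of the myocardin family were also compared with each other inside each library, as a description without a test. Levels per length (RPKM, from the exon lengths in the count table) allow this, and such shares do not depend on the scaling. Myocd made up 49.7%, 53.7% and 45.8% of the summed RPKM of Myocd, Mkl1 and Mkl2 in KO 1, KO 2 and KO 3, against 41.9%, 36.5% and 36.2% in WT 1, WT 2 and WT 3. Each KO library was above each WT library, KO 3 and WT 2 included. The means were 49.8 ± 3.91% in KO and 38.2 ± 3.24% in WT (SD, n = 3 each). Genes outside the family showed such a difference too: 20.0% of 15870 genes with reads in every library also had a ratio to Myocd that was lower in every KO library than in any WT library, and 0.340% had a higher one. The ratio of Mkl1 to Mkl2 overlapped between the groups, at 0.718, 0.790 and 0.880 in KO 1, KO 2 and KO 3, against 0.868, 1.04 and 0.935 in WT 1, WT 2 and WT 3.

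The ratio of Mkl1 to Myocd RPKM was 0.422, 0.381 and 0.553 in KO 1, KO 2 and KO 3, against 0.644, 0.890 and 0.853 in WT 1, WT 2 and WT 3. The ratio of Mkl2 to Myocd was 0.588, 0.483 and 0.629 in the KO libraries, against 0.742, 0.853 and 0.912 in the WT libraries. The ratio of Srf to Myocd was 0.534, 0.602 and 0.632 in the KO libraries, against 0.765, 0.888 and 0.797 in the WT libraries. All 3 ratios were lower in every KO library, as was that of Mef2c to Myocd (0.828 ± 0.0908 in KO and 1.04 ± 0.117 in WT, SD, n = 3 each). Of the 7 other regulators, 4 had a ratio to Myocd below the WT range in every KO library, against 20.0% of 15870 genes with reads in every library. The ratios were chosen with the earlier results known and share Myocd as denominator, so nothing is tested on them.

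**Figure D3:**
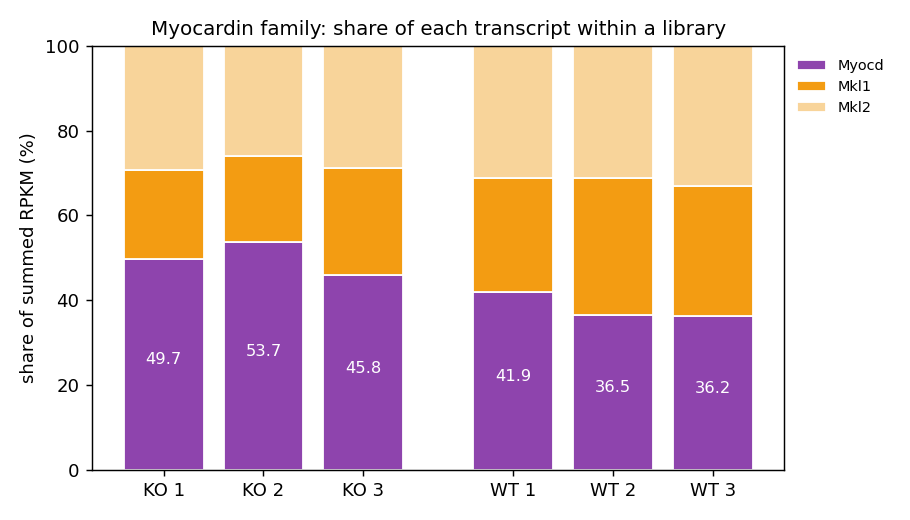
Share (%) of Myocd, Mkl1 and Mkl2 in their summed RPKM, each bar being a library, KO libraries on the left. The Myocd share is 45.8% to 53.7% in the KO libraries and 36.2% to 41.9% in the WT libraries.

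Klf4 (chr4:55540009-55545347, minus strand, mm9, 5 exons) was the most even of the 8 across libraries, with a highest level 1.5 times the lowest. It was at 64.3, 58.3 and 51.3 CPM in KO 1, KO 2 and KO 3, against 62.4, 43.0 and 56.2 CPM in WT 1, WT 2 and WT 3. The groups overlapped almost fully, and KO 3 and WT 2 were again the lowest of their groups. The means were 58.0 ± 6.54 CPM in KO and 53.9 ± 9.89 CPM in WT (SD, n = 3 each), with a log2 fold change of 0.11 (SE 0.17, edgeR adjusted p 0.917) and an interval of -0.31 to 0.52. It was -0.041 without KO 1 and -0.034 without WT 2. Klf4 lies on the same chromosome as Col15a1 (chr4:47220884-47326037, mm9), 8.21 Mb beyond its end. The ratio of Klf4 to Myocd RPKM, a factor against the cofactor it opposes, was 1.01, 0.843 and 1.37 in KO 1, KO 2 and KO 3, against 1.36, 1.29 and 1.32 in WT 1, WT 2 and WT 3. KO 1 and KO 2 were below the WT libraries and KO 3 was above them.

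Klf5 (chr14:99697910-99712628, plus strand, mm9, 4 exons) was near the limit of measurement. It had 11, 34 and 55 reads in KO 1, KO 2 and KO 3, against 17, 28 and 11 reads in WT 1, WT 2 and WT 3. KO 1 and WT 3 had the same count, and KO 3 had the most. KO 3 and WT 2, the libraries rich in neuronal transcripts, were the highest of their groups. Its level was 1.38 ± 0.852 CPM in KO and 0.713 ± 0.263 CPM in WT (SD, n = 3 each). The log2 fold change was 0.94 (SE 0.60, edgeR adjusted p 0.745). It was 0.45 without KO 3 and 0.60 without WT 3, and 1.27 without KO 1 (edgeR unadjusted p 0.038, adjusted p 0.603). Without both KO 3 and WT 2 it was 0.71 (edgeR adjusted p 0.781). The exact Poisson 95% interval, which covers counting error only, was 1.63 to 2.82 CPM in KO 3 and 0.237 to 0.849 CPM in KO 1, so animals of the same genotype differed by more than counting error. The 5 epithelial markers, a cell type known for Klf5, summed to 12.5, 20.2 and 15.7 CPM in KO 1, KO 2 and KO 3. They summed to 14.0, 13.7 and 12.5 CPM in WT 1, WT 2 and WT 3. The markers differed: among KO libraries, Krt18 was highest in KO 1 (10.6 CPM) and lowest in KO 3 (3.43 CPM). Epcam, Krt8, Krt5 and Cdh1 were lowest in KO 1, as Klf5 was. The part of epithelium in the Klf5 level was not tested.

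Tcf21 (chr10:22537079-22539934, minus strand, mm9, 2 exons) was as scarce. It had 26, 22 and 38 reads in KO 1, KO 2 and KO 3, against 24, 4 and 28 reads in WT 1, WT 2 and WT 3. WT 2 stood alone at 0.134 CPM (exact Poisson 95% interval 0.0366 to 0.344), while the other 5 libraries lay between 0.960 and 1.498 CPM. The log2 fold change of 0.65 (SE 0.71, edgeR adjusted p 0.878) was 0.13 without WT 2 and -0.071 without WT 2 and KO 3. WT 2 also had the lowest adipocyte markers (7 genes, none at 0 in all libraries), at 231 CPM summed, against 598 to 1246 CPM in the other libraries. In the 6 fibroblast markers WT 2 was at 7646 CPM summed, against 3226 to 9303 CPM elsewhere. Without Lum and Col1a1, a choice made after seeing the data, WT 2 was at 2257 CPM. Only KO 3 was lower, at 2020 CPM, and the other libraries were at 2782 to 3795 CPM. The parts of fat and fibroblasts in the Tcf21 level were not tested.

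The counts of Klf5 and Tcf21 also rest on short gene models. The count table gives Klf5 an exon length of 1725 bases, which is 33.2% of the 5201 bases that GENCODE M21 (basic set, GRCm38) annotates, and Tcf21 1229 bases, 52.3% of 2349. For Myocd, Mkl1, Mkl2, Klf4 and Mef2c the table holds 89.8% to 100% of the GENCODE length, and for Srf it holds more (4093 against 2616 bases). Reads from exon sequence outside the table's models were not counted, so the levels of Klf5 and Tcf21 may be understated relative to the other 6, and how much was not tested. RPKM divides by the table's length, so the level of Srf per length may also be understated. The size of its ratio to Myocd rests on the same length, and this was not tested either.

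Mef2c (chr13:83643033-83806684, plus strand, mm9, 12 exons) was at 99.3, 130 and 71.5 CPM in KO 1, KO 2 and KO 3, against 115, 74.2 and 85.2 CPM in WT 1, WT 2 and WT 3. The groups overlapped, with KO 3 and WT 2 the lowest of the 6 libraries. The means were 100.3 ± 29.4 CPM in KO and 91.6 ± 21.2 CPM in WT (SD, n = 3 each), with a log2 fold change of 0.13 (SE 0.27, edgeR adjusted p 0.924). Its direction rested on single libraries, as it was -0.10 without KO 2 and 0.33 without WT 1 or KO 3. Mef2c is also expressed in endothelium and neurons. The 6 endothelial markers, none at 0 in all libraries, summed to 1010 to 1520 CPM in KO and 852 to 1520 CPM in WT, and their part in the Mef2c level was not tested.

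Per length, the 8 genes fell into 6 that were well expressed and 2 that were barely detected. Over the 6 libraries, the mean RPKM was 18.4 for Klf4, 16.0 for Myocd, 14.6 for Mef2c, 10.8 for Srf, 10.7 for Mkl2, 9.27 for Mkl1, 0.798 for Tcf21 and 0.605 for Klf5. Of neighbours in this order, Mef2c was above Srf in 6 of 6 libraries, and Mkl1 was above Tcf21 in 6 of 6. The places of Srf, Tcf21 and Klf5 also rest on their gene models. Klf4 exceeded Myocd in 5 of 6 libraries, with KO 2 as the exception, and the difference (mean log2 ratio 0.24, SD 0.29) was within its spread. The differences between Myocd and Mef2c, between Srf and Mkl2, and between Tcf21 and Klf5 were also smaller than their spread over libraries (SD of the log2 ratio 0.23, 0.18 and 1.55), while that between Mkl2 and Mkl1 was about equal to it (0.21, SD 0.19). Klf4 had the highest RPKM of the 8 in 5 libraries, and Myocd in KO 2.

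The likeness of the regulators' profiles was measured as the root mean square difference of log2 CPM profiles over the 6 libraries, after centring each gene on its mean, which is 0 for identical profiles. Among the 28 pairs of regulators, Srf and Mef2c were the closest at 0.15, followed by Srf and Mkl2 at 0.16 and by Mkl1 and Mkl2 at 0.17, while Mkl2 and Klf5 were the farthest apart at 0.76. Myocd was closest to Mef2c, at 0.21, and lay at 0.46 from Mkl1. KO 3 was below its gene's mean by 0.11 to 0.45 log2 units for Myocd, Srf, Mkl1, Mkl2, Klf4 and Mef2c, and above it by 0.89 for Klf5 and 0.51 for Tcf21.

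Across the other genes tested with a mean of at least 1 CPM and an established name (13693 or 13694 per regulator), the 3 profiles nearest to Myocd were those of Ldb3, Ppp1r12a and Rbpms2, at distances of 0.083, 0.087 and 0.094. Ldb3 was at 106, 108 and 60.2 CPM in KO 1, KO 2 and KO 3, against 80.3, 48.1 and 67.6 CPM in WT 1, WT 2 and WT 3, which puts the 6 libraries in the same order as Myocd does. Those near Mkl1 included Ssbp4 and Ncapd2 (0.034 and 0.046). The nearest to Srf were Tmem38b, Mif4gd and Mcm4 (0.055 to 0.056), and to Mkl2 Lima1, Myo9b and Ctdp1 (0.021 to 0.035). The nearest to Klf4 were Sh3d19, Invs and Prim2 (0.033 to 0.047), and to Mef2c Msrb3, Pon3 and Kcne4 (0.044 to 0.046). For the scarce genes the nearest profiles were less close, at 0.14 to 0.17 for Klf5 (Zfp449, Enpp5 and Ahrr) and 0.14 for Tcf21 (Adamtsl2, Ifi202b and Hsd11b1). Hsd11b1, a glucocorticoid-activating enzyme gene of fat and fibroblasts, was at 21.5, 24.4 and 24.8 CPM in KO 1, KO 2 and KO 3, against 20.7, 8.40 and 19.8 CPM in WT 1, WT 2 and WT 3, with the same low value in WT 2.

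Genes known to respond to these regulators were compared in the same fit, and neither edgeR, DESeq2 nor limma-voom called a gene of any list after adjustment over all genes. Of 15 contractile SRF targets, 14 were fitted higher and 1 lower in KO; the median log2 fold change was 0.37, against 0.068 over all genes, and 0 had an unadjusted p under 0.05. Acta2, the smooth muscle actin gene, was at 1999, 4530 and 1499 CPM in KO 1, KO 2 and KO 3, against 2907, 1572 and 1873 CPM in WT 1, WT 2 and WT 3. Myh11, the smooth muscle myosin heavy chain gene, was at 4290, 5670 and 2379 CPM in the KO libraries, against 3801, 2193 and 3335 CPM in the WT libraries. KO 2 was the highest library for both genes and for the others of the 15 except Smtn, which was highest in KO 1. For Acta2, KO 1 lay within the WT range and KO 3 below it. For Myh11, KO 1 lay above the WT libraries and KO 3 within their range. How far the list's median rests on KO 2 was not tested. The members with the smallest p were Des (0.55), Pgm5 (0.42) and Tpm1 (0.35 as log2 fold change), with edgeR adjusted p from 0.708 to 0.803, and the groups overlapped for all 15. Without KO 3 and WT 2 the median was 0.42.

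Early SRF targets were fitted lower in KO. All 9 log2 fold changes were below 0 (median -0.43), and 6 were lower in every KO library than in any WT library, where 8.38% of all genes were. Junb, an AP-1 gene, was at 68.0, 61.5 and 38.4 CPM in KO 1, KO 2 and KO 3, against 82.0, 87.8 and 81.0 CPM in WT 1, WT 2 and WT 3 (log2 fold change -0.58, edgeR unadjusted p 0.0370, adjusted p 0.605). Egr1, a growth-response zinc finger gene, was at 44.1, 37.1 and 19.9 CPM in the KO libraries, against 51.1, 46.2 and 55.3 CPM in the WT libraries. Ier2 was at 12.5 ± 1.18 CPM in KO and 14.97 ± 0.778 CPM in WT (SD, n = 3 each). KO 3 was the lowest library for all 3 genes, and without KO 3 and WT 2 the list's median was -0.24, with 1 of 9 positive. Macrophage markers were lower in the same libraries, and as these genes are active in many cell types, the part of macrophages in their level was not tested.

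Cytoskeletal MRTF targets were mixed, with 3 positive and 8 negative of 11 and a median of -0.095. Actg1 was at 387, 461 and 402 CPM in KO 1, KO 2 and KO 3, against 508, 526 and 530 CPM in WT 1, WT 2 and WT 3, so the groups did not overlap (log2 fold change -0.32, edgeR unadjusted p 0.0426, adjusted p 0.617). In this list 1 of 11 genes had KO below without overlap, near the 8.38% of all genes tested. Myh9, a non-muscle myosin gene, had a log2 fold change of -0.45 and Actb of -0.39, with adjusted p of 0.687 and 0.798. The list's median turned to 0.060 without KO 3 and WT 2.

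Of the ternary complex factors, which compete with the myocardin family, Elk3 was lower in every KO library, at 50.3, 50.1 and 37.1 CPM in KO 1, KO 2 and KO 3, against 56.9, 51.6 and 59.2 CPM in WT 1, WT 2 and WT 3 (log2 fold change -0.29, edgeR adjusted p 0.684). Over all genes tested, 8.38% were lower in every KO library than in any WT library. Elk4 and Elk1 had log2 fold changes of -0.034 and 0.022, and that of Elk1 turned negative with upper-quartile or total-count scaling. Among 10 genes that carry actin signals to MRTFs, 6 were positive and 4 negative, with a median of 0.10 that turned to -0.045 without KO 3 and WT 2. Rock1, the gene of a kinase that acts on the actin cytoskeleton, was at 409, 443 and 273 CPM in KO 1, KO 2 and KO 3, against 306, 267 and 260 CPM in WT 1, WT 2 and WT 3 (log2 fold change 0.43, edgeR adjusted p 0.668). KO 3 lay within the WT range and the other KO libraries above it. Cfl1, the cofilin gene, had a log2 fold change of -0.26 and Rock2 of 0.22, with adjusted p of 0.696 and 0.770.

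**Figure D4:**
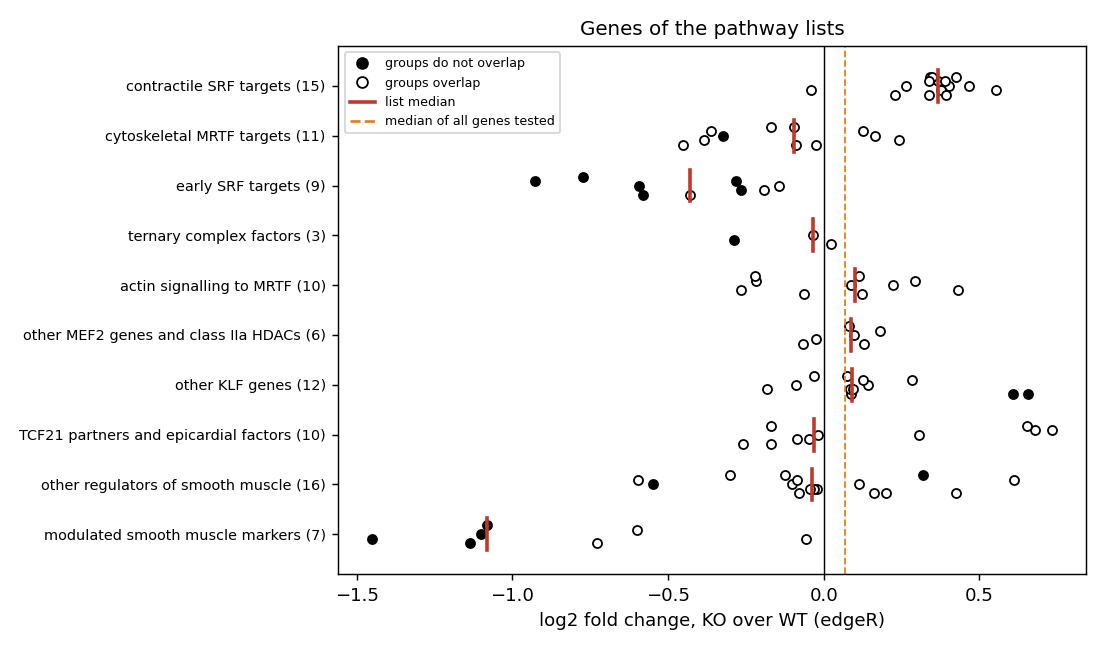
Log2 fold change (KO over WT, edgeR) of each tested gene in the pathway lists, with the number tested in brackets; filled points are genes whose KO and WT libraries do not overlap, red lines are list medians, and the dashed line is the median of all genes tested. The list median is 0.37 for contractile SRF targets and -0.43 for early SRF targets. The medians of the other KLF genes and of the other MEF2 and HDAC genes are near that of all genes. Klf9 and Klf15 lie further out, at 0.61 and 0.65.

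Relatives of the KLF and MEF2 genes were close to the background, apart from 2 KLF genes. Of 12 tested among 15 other KLF genes, 9 were positive and 3 negative, with a median of 0.092. Klf9, a KLF gene that glucocorticoids induce, was at 161, 160.02 and 141 CPM in KO 1, KO 2 and KO 3, against 107, 86.4 and 109 CPM in WT 1, WT 2 and WT 3. Its log2 fold change was 0.61 (SE 0.13), with an edgeR unadjusted p of 0.00353 and an adjusted p of 0.587, and a DESeq2 adjusted p of 0.0635. Klf15, also induced by glucocorticoids and expressed in fat and muscle, was at 36.2, 31.6 and 32.2 CPM in the KO libraries, against 19.96, 14.5 and 29.1 CPM in the WT libraries (log2 fold change 0.65, edgeR adjusted p 0.617). The groups did not overlap for either gene, against 8.33% of all genes with KO above. The summed level of 7 adipocyte markers did not overlap either, at 959 to 1250 CPM in KO and 231 to 761 CPM in WT. Singly, 5 of the 7 had KO above, and the groups overlapped for the other 2, Adipoq and Lep. The part of fat in the levels of Klf9 and Klf15 was not tested. Klf7 had a log2 fold change of 0.28 with overlapping groups.

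Of 6 tested among 7 other MEF2 genes and class IIa histone deacetylases, which repress MEF2 proteins, 4 were positive and 2 negative, with a median of 0.089 (-0.0054 without KO 3 and WT 2). Hdac5, Hdac4 and Hdac9 had log2 fold changes of 0.18, 0.096 and 0.13, with adjusted p of 0.773 to 0.917 in edgeR. Of 10 tested among 11 partners of TCF21 and epicardial factors, 4 were positive, with a median of -0.032. Msc, the gene of the TCF21 relative musculin, had a log2 fold change of 0.68 at a level of 1.098 ± 0.275 CPM in KO and 0.685 ± 0.211 CPM in WT (SD, n = 3 each), and Tcf3, an E protein gene, one of -0.26. Hand2 was at 107 CPM in KO 3 and 58.5 CPM in WT 2, against 13.8 to 16.5 CPM in the other libraries; KO 3 and WT 2 were the libraries high in neuronal markers; their part was not tested.

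Of 16 tested among 18 other regulators of smooth muscle, 6 were positive and 10 negative, with a median of -0.038. Hey2, a Notch-responsive repressor gene, was at 52.6, 48.6 and 52.4 CPM in KO 1, KO 2 and KO 3, against 43.5, 41.5 and 38.1 CPM in WT 1, WT 2 and WT 3. The groups did not overlap (log2 fold change 0.32, SE 0.10, edgeR unadjusted p 0.0193, adjusted p 0.587). This made 1 of 16 genes with KO above, which is near the 8.33% of all genes tested. Sox9, a chondrogenic factor gene, was at 12.8, 9.95 and 8.28 CPM in KO 1, KO 2 and KO 3, against 14.6, 15.1 and 15.8 CPM in WT 1, WT 2 and WT 3 (log2 fold change -0.55, edgeR unadjusted p 0.0258, adjusted p 0.587). Its groups did not overlap either, so 1 of 16 genes had KO below, near the 8.38% of all genes tested. Runx2, an osteogenic factor gene, had a log2 fold change of -0.60 with overlapping groups.

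Markers described for modulated smooth muscle cells were lower in KO by their fitted values, 7 of 7 negative with a median of -1.08. For 4 of the 7, every KO library was below every WT library, against 8.38% of all genes tested. Lum, the gene of the proteoglycan lumican, was at 992, 1054 and 287 CPM in KO 1, KO 2 and KO 3, against 1816, 1626 and 1555 CPM in WT 1, WT 2 and WT 3 (edgeR unadjusted p 0.0622, adjusted p 0.630). Fn1, the fibronectin gene, was at 6693, 6533 and 1955 CPM in the KO libraries, against 10772, 9776 and 11589 CPM in the WT libraries. Spp1, the osteopontin gene, was at 2353, 1551 and 218 CPM in the KO libraries, against 3455, 3925 and 3876 CPM in the WT libraries. KO 3 was by far the lowest for all 3, and without KO 3 and WT 2 the median was -0.73 with 7 of 7 still negative. These genes are expressed in macrophages and fibroblasts as well. The 7 macrophage markers summed to 611 to 1100 CPM in KO and 1570 to 1700 CPM in WT. The summed fibroblast markers, of which Lum is a member, were 3230 to 7270 CPM in KO and 7650 to 9300 CPM in WT. Of the 6 fibroblast markers 2 had positive and 4 negative log2 fold changes, with Lum and Col1a1 the ones whose groups did not overlap. Without Lum and Col1a1, a choice made after seeing the data, the sums overlapped, at 2020 to 3530 CPM in KO and 2260 to 3800 CPM in WT. The parts of macrophages and fibroblasts in the difference were not tested.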

How the data were processed

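The authors deposited raw read counts per gene for 6 libraries. The command line in the header records featureCounts (1.4.6-p4), counting by gene name on exons from UCSC genes of mm9, with no option for strand or multi-mapping reads, so antisense and near-identical genes are uncertain. The tools named per the submitters' processing notes are STAR (3.0 in the notes), CASAVA, DESeq2 and Subread. Exon lengths in the deposited table, another kind of value, gave RPKM. Groups and replicate numbers came from the sample titles, and p-values measure the spread between 3 animals per group. KO was compared with WT by edgeR 4.0.16 in R 4.3.3 (quasi-likelihood test, two-sided, TMM, filterByExpr with a minimum count of 10, 15937 genes, Benjamini-Hochberg adjustment, threshold 0.05). Standard errors came from the F statistic. CPM are TMM-scaled. Profiles used log2 CPM with a pseudocount of 0.5. The step was tested on simulated data.

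The regulators, lists and ratios were chosen with earlier results of these data known. Named genes were the 8 regulators, Col15a1, Acta2, Myh11, the 3 genes per list with the smallest p and the 3 nearest profiles per regulator; 1 of these profiles is not reported here. Alternatives were other scalings and filters, DESeq2 1.42.0, limma-voom (limma 3.58.1), a replicate block, libraries left out and Rn45s left out. GRCm38 sequences and lengths from RefSeq and GENCODE were kept apart from mm9 coordinates.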

Additional observations from a re-analysis of the deposited data

How the results depend on the processing

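The count of regulators called was 0 under all 16 alternatives run. The count of all genes called by edgeR was 0, with a range of 0 to 0 when each library was left out, and it became 63 with DESeq2 (33 higher and 30 lower in KO) and 1 (Gbp2b, lower in KO, adjusted p 0.0386) without WT 2 and KO 3; the cause of these differences was not tested. The log2 fold changes of Myocd (0.32 to 0.71), Mkl1 (-0.51 to -0.26) and Klf5 (0.45 to 1.27) kept their sign in all 16. That of Srf, 0.011, was -0.0085 with DESeq2-style size factors, -0.0086 with upper-quartile scaling, -0.0292 with total counts, -0.0086 in DESeq2, -0.0244 in limma-voom and -0.0239 with the replicate block, and lay between -0.19 and 0.20 when single libraries were omitted. In the same omissions Klf4 ran between -0.041 and 0.22, Mef2c between -0.10 and 0.33 and Mkl2 between -0.31 and 0.071. Tcf21 turned to -0.071 without WT 2 and KO 3, and it was left out by the filter of at least 10 counts in every library. The replicate block called 0 genes and 0 regulators. The deviations of same-numbered KO and WT libraries had correlations of 0.484, -0.736 and -0.651 over genes. KO 3 and WT 2 correlated at 0.81, and pairs holding only KO 3 or only WT 2 were negative. As these libraries set the signs, the correlations cannot show whether the numbers pair the samples. Counting error was small for 6 of the regulators, and depth limits Klf5 and Tcf21, with 4 to 55 reads per library.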
